A study of Rattus norvegicus with 8 samples.

Results

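The expression of 9 early-response transcription factor genes was followed in rat testis after a single oral dose of Adjudin. They were the AP-1 genes Fos, Fosl1, Jun, Junb, Jund and Atf3, the zinc finger gene Egr1 and the orphan nuclear receptor genes Nr4a1 and Nr4a3. The members were taken by name as every probe set of the Affymetrix rat genome array whose only gene symbol was one of these. This gave 16 of the 31099 probe sets on the array, and no probe set (0) paired a member with another symbol. Signals were scaled to the same trimmed mean on every array, and of the 16 probe sets 12 reached 100 on 2 or more arrays and were tested among 19785. They covered 8 of the 9 genes, since the probe set of Atf3 did not reach that minimum.

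All rats were adult Sprague-Dawley animals, and total RNA came from whole testis. The drug Adjudin, an indazole derivative under which germ cells lose their hold on Sertoli cells, was given by gavage at 50 mg/kg. The groups were testes collected 4 d after the dose (3 arrays), testes collected 8 h after it (2 arrays), and testes of rats that received no dose, the controls (3 arrays). No vehicle group is named in the labels, nor is it stated that every array had its own animal. The p-values therefore cover no more than the spread among these 8 samples, which could be technical. Groups were taken from the titles, since another field calls every sample normal testis. In bulk tissue, fewer cells of a type and less RNA per cell cannot be told apart.

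AP-1 is a pair of basic leucine zipper proteins, in which a Fos or Atf protein binds a Jun protein. Genes of this kind are transcribed within minutes of a stimulus such as a growth factor, a cytokine or cell stress, without new protein synthesis, and many of their transcripts are short-lived. Serum response factor and its cofactors, activated by MAP kinases and by changes in actin, drive several of them. In the testis, Jun, Jund and the Nr4a receptors are known in Leydig cells and Fos and Jun proteins also in Sertoli cells, and mice without Jund have defective spermatogenesis.

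A signal of 100 was reached by 51.6% to 59.0% of the probe sets, depending on the array, and within a group log2 signals of any pair of arrays had an r of 0.954 to 0.978. The project line in the settings recorded with the arrays places them in 3 sets. These are called runs here, which is a reading of that line. Run 1 held 4 d 1, 8 h 1 and control 1. Run 2 held 4 d 2 and control 2, and run 3 held 4 d 3, 8 h 2 and control 3. The fluidics protocol was version 4 in run 2, which held no 8 h array, and version 5 in runs 1 and 3. Markers of testis cells were present. The spermatid protamine gene Prm1 had a signal of 27831 to 41572 at 4 d, 36090 to 49945 at 8 h and 33521 to 56623 in controls. Both tests against control used the same 3 control arrays.

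The 9 genes followed different courses. Fos and Egr1 were high at 8 h and much lower at 4 d. Jun and Jund passed the test at 4 d against control, but in their brightest probe sets all 8 h arrays lay above all controls too. The log2 change of Jun was nearly the same at both times (0.91 at 4 d and 0.92 at 8 h), and its other probe sets did not pass. The probe set of Nr4a1 was lower at 4 d than at 8 h. Of the 8 tested genes, each read from the tested probe set that was brightest on average over the 8 arrays, 2 rose and 0 fell at 8 h against control at an adjusted p below 0.05 in limma, where 0.0657% of all tested probe sets rose and 0% fell. One of them, Fos, reached the signal minimum on the 8 h arrays alone, so the count and the share are not a like comparison. Without adjustment, 5 of the 8 had p below 0.05 there, and these were higher, where 3.91% of all tested probe sets had such a p in either direction. Of the 8 genes, 2 rose and 0 fell at 4 d against control, where 9.89% of all tested probe sets passed (6.16% rose and 3.73% fell), and 4 were higher and 1 lower at an unadjusted p below 0.05, which 22.7% of all had. Between 4 d and 8 h, 0 of the 8 rose and 3 fell, where 6.06% of all passed (3.58% rose and 2.47% fell), and 0 were higher and 5 lower without adjustment, where 18.6% of all had such a p. Fos is again among these falls, so this count and its share are not a like comparison either.

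**Figure D1:**
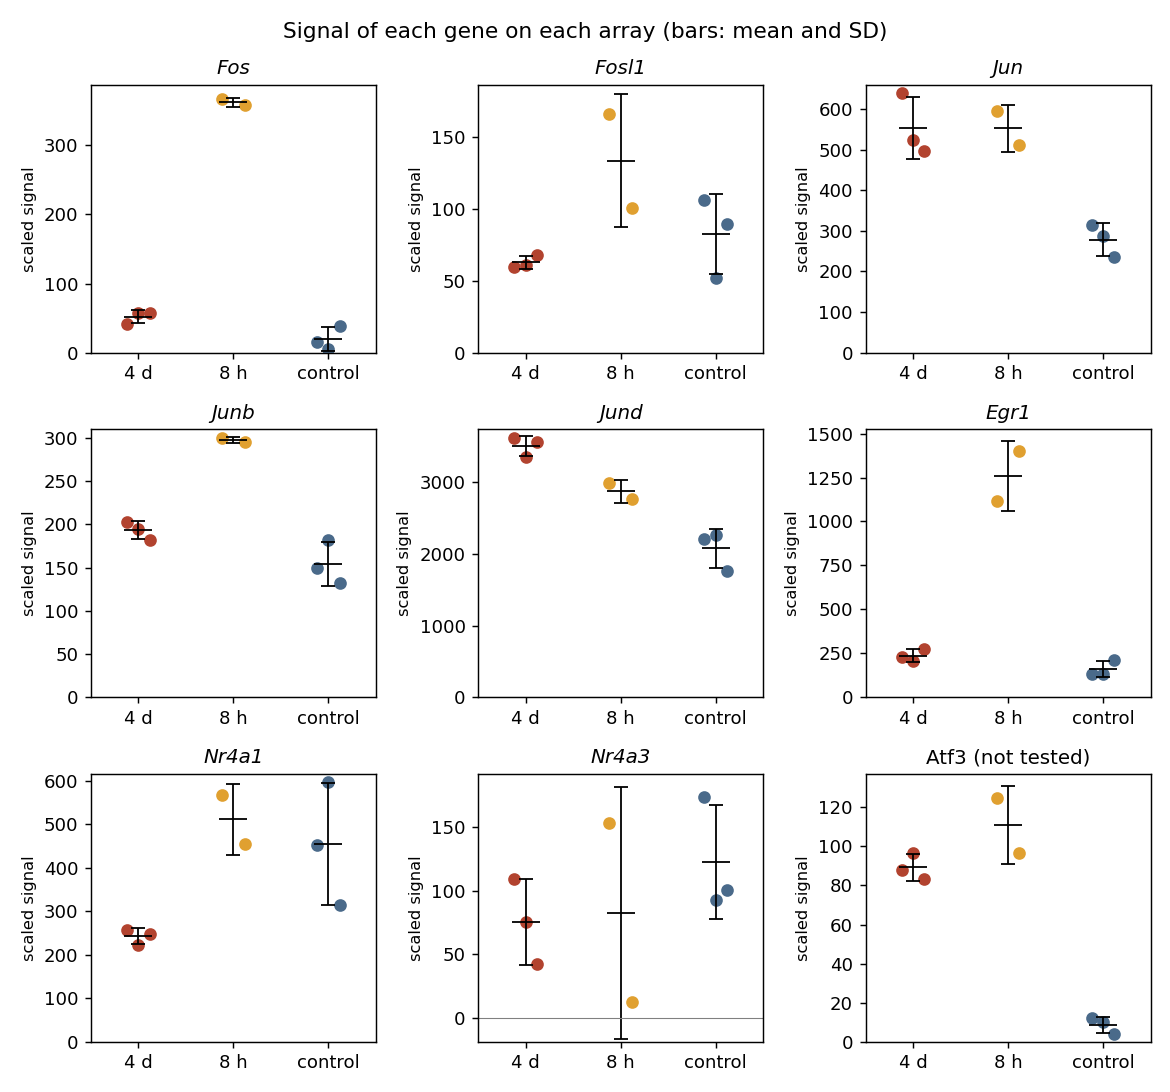
Scaled signal of each gene on each array at 4 d (3 arrays), 8 h (2 arrays) and in controls (3 arrays), with a scale of its own in each panel. Points are arrays, and bars give the mean and SD. Fos and Egr1 stand high only in the 8 h column, while Jun and Jund are above control in both Adjudin columns.

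Fos encodes the AP-1 protein c-Fos, which binds DNA only together with a Jun partner. Its signal was 41.4, 56.8 and 57.8 at 4 d, 367 and 358 at 8 h, and 14.99, 5.00 and 38.6 in controls (probe set 1375043_at). Every 8 h array lay far above all others, and the 4 d arrays lay just above the controls without overlap. The mean was 363 ± 6.52 at 8 h (SD, n = 2) and 19.5 ± 17.2 in controls (SD, n = 3), a log2 change of 2.99 (SE 0.35, adjusted p = 0.0133) on the log2(signal + 32) scale. Fos fell at 4 d against 8 h (log2 change -2.24, SE 0.35, adjusted p = 0.00659).

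The log2 change of Fos at 4 d against control was 0.75 (SE 0.31, adjusted p = 0.181). Within runs the difference at 8 h against control was 3.09 in run 1 and 2.47 in run 3. The probe set passed the signal minimum only through the 8 h arrays, and its controls were dim, so the size of the rise depends on the added 32: with 4 in its place the log2 change was 4.24 (adjusted p = 0.112) and with 64 it was 2.37 (adjusted p = 0.00457). The call at 8 h against control was also lost without control 1 (adjusted p = 0.0632), without 8 h 1 (0.208) or without 8 h 2 (0.303), and that at 4 d against 8 h without 8 h 1 (0.0571) or 8 h 2 (0.0694). Without a whole run, Fos at 8 h against control had an adjusted p of 1.00, 0.133 and 0.153 (runs 1, 2 and 3), and at 4 d against 8 h it missed the threshold without run 1 (0.273). A second probe set of Fos, 1371283_at, stayed below 100 on every array and was not tested. It read 9.80, 33.6 and 7.40 at 4 d, 77.6 and 45.4 at 8 h, and 20.4, 51.4 and 12.4 in controls, where the 8 h and control arrays overlapped.

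Fosl1 encodes Fra-1, a Fos family member that lacks the strong activation domain of c-Fos. Its signal was 60.0, 60.8 and 68.0 at 4 d, 167 and 101 at 8 h, and 107, 51.8 and 89.8 in controls. The 8 h arrays overlapped the controls, and the 4 d arrays lay below both 8 h arrays. No comparison passed the test: the log2 change was 0.53 (SE 0.33) at 8 h against control, -0.24 (SE 0.29) at 4 d against control and -0.78 (SE 0.33) at 4 d against 8 h (adjusted p = 1.00, 0.701 and 0.232).

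Jun encodes c-Jun, the AP-1 partner that Jun N-terminal kinases activate. Its signal was 639, 524 and 497 at 4 d, 594 and 511 at 8 h, and 314, 287 and 235 in controls (1389528_s_at). All 5 Adjudin arrays lay above the 3 controls, and the 4 d and 8 h arrays overlapped. Jun rose at 4 d against control by a log2 of 0.91 (SE 0.17, adjusted p = 0.00843), with 0.95, 0.80 and 0.99 in the 3 runs. At 8 h against control the log2 change was 0.92 (SE 0.19, adjusted p = 0.253), and it passed with the run as a block (adjusted p = 0.0362). The difference between 4 d and 8 h was close to 0 (log2 -0.0015, SE 0.19).

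The other probe sets of Jun changed less, and neither passed in any comparison. Probe set 1369788_s_at read 332, 391 and 298 at 4 d, 418 and 316 at 8 h, and 305, 226 and 236 in controls (log2 0.38, SE 0.19, adjusted p = 0.274 at 4 d against control). The third, 1374404_at, read 425, 312 and 205 at 4 d, 373 and 234 at 8 h, and 327, 281 and 133 in controls (log2 0.34, SE 0.34, adjusted p = 0.632). In the third probe set the groups overlapped in all comparisons, and run 3 held its lowest array in every group. With the mean of the 3 probe sets in place of the brightest one, Jun did not pass at 4 d (log2 0.54, adjusted p = 0.159).

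Junb encodes a Jun family member that often opposes c-Jun in cell proliferation. Its signal was 203, 195 and 182 at 4 d, 300.5 and 296 at 8 h, and 149, 182 and 132 in controls. Both 8 h arrays lay above all others, and the lowest 4 d array and the highest control were nearly equal. The log2 change was 0.83 (SE 0.20, adjusted p = 0.411) at 8 h against control and -0.55 (SE 0.20, adjusted p = 0.165) at 4 d against 8 h, so neither passed. With the run as a block these gave adjusted p = 0.114 and 0.0511.

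Jund encodes JunD, the Jun family member that is expressed without a stimulus in many tissues. Its brightest probe set, 1393138_at, had a signal of 3616, 3357 and 3557 at 4 d, 2990.5 and 2765 at 8 h, and 2212, 2264 and 1768 in controls. The 3 groups did not overlap, with 4 d above 8 h and 8 h above control. Its signal rose at 4 d against control by a log2 of 0.75 (SE 0.13, adjusted p = 0.00585), with 0.70, 0.56 and 1.00 in the 3 runs. The change of 0.47 at 8 h against control (SE 0.14, adjusted p = 0.762) and that of 0.28 at 4 d against 8 h (SE 0.14, adjusted p = 0.339) did not pass.

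A second probe set of Jund, 1387762_s_at, read 363, 263 and 234 at 4 d, 222 and 185 at 8 h, and 10.8, 69.6 and 11.2 in controls. It passed the signal minimum through the Adjudin arrays only. It rose at 4 d against control by a log2 of 2.46 (SE 0.35, adjusted p = 0.00248), and its change of 2.04 at 8 h against control (SE 0.39, adjusted p = 0.200) passed with the run as a block (log2 2.22, adjusted p = 0.0324). The suffix of this and of 2 of the Jun probe sets marks, in the naming of the array, probes shared by several transcripts. The third probe set, 1375768_at, was dim on every array (5.80 to 11.4 at 4 d, 9.80 and 14.99 at 8 h, and 15.8 to 29.6 in controls) and was not tested. With the mean of its 2 tested probe sets, the log2 change of Jund at 4 d against control was 1.60. The calls of Jun and Jund at 4 d held when any single array was left out. They were lost without run 1 (adjusted p = 0.142 for Jun and 0.144 for Jund) and without run 2 (0.0788 and 0.0517).

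Atf3 encodes a stress-induced member of the ATF and CREB family that pairs with Jun proteins and often represses. Its only probe set, 1369268_at, read 88.0, 96.6 and 83.2 at 4 d, 125 and 96.8 at 8 h, and 11.995, 9.996 and 3.80 in controls. All 5 Adjudin arrays lay at least at 83.2 and all 3 controls at or below 11.995, yet only 8 h 1 exceeded 100, so the gene was not among those tested. In the fit with no signal minimum, over 31042 probe sets, Atf3 rose at 4 d by a log2 of 1.58 (SE 0.24, adjusted p = 0.00467). Its change at 8 h was 1.81 (SE 0.26, adjusted p = 0.0815), and that at 4 d against 8 h was -0.23 (SE 0.26, adjusted p = 0.819). On so dim a probe set these log2 changes depend on the added 32.

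**Figure D2:**
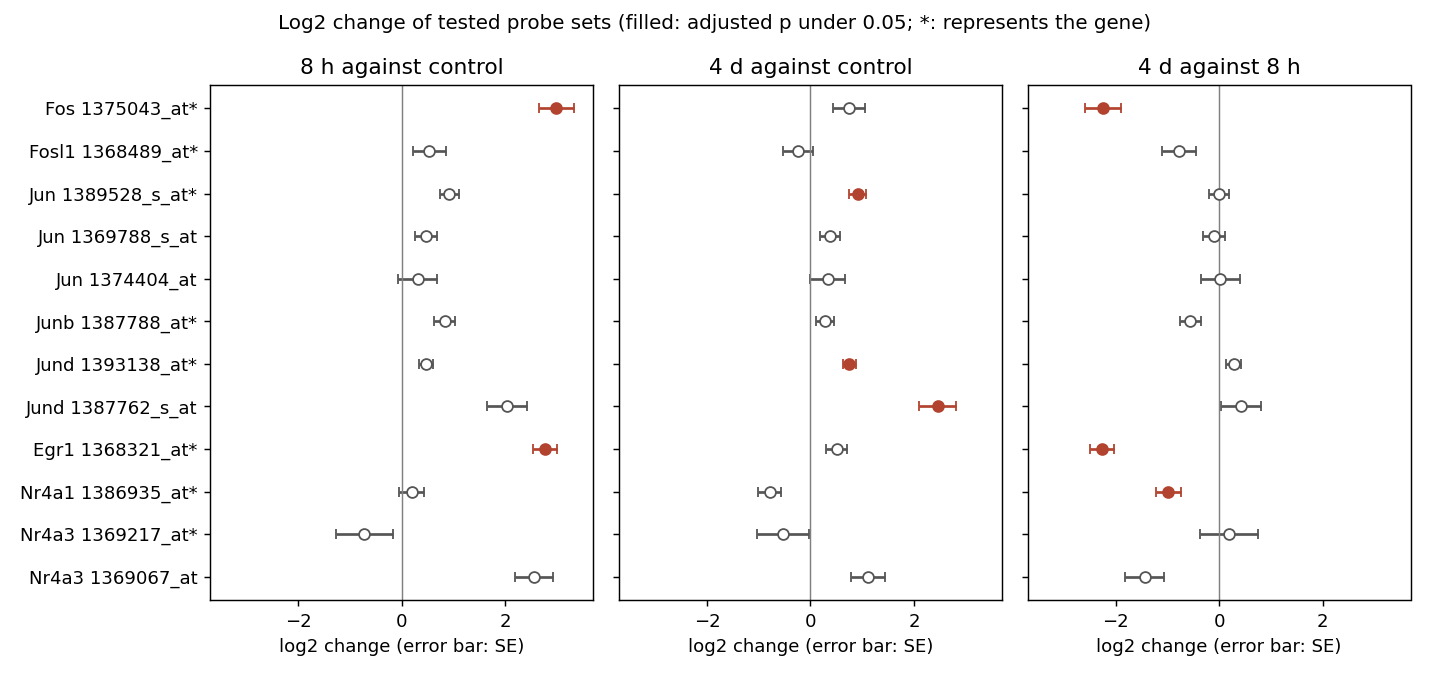
Log2 change of the 12 tested probe sets in the 3 comparisons, on the log2(signal + 32) scale, with SE as error bars. Filled points passed an adjusted p of 0.05. Fos and Egr1 lie at 2.99 and 2.77 in the first panel and at -2.24 and -2.27 in the third, while Jun and Jund pass in the second.

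Egr1 encodes a zinc finger transcription factor that binds GC-rich sites. Its signal was 228, 203 and 275 at 4 d, 1117 and 1398 at 8 h, and 130.15, 134 and 213 in controls. Both 8 h arrays lay far above the other 6, with the lowest 4 d array inside the control range. The mean was 1257 ± 199 at 8 h (SD, n = 2) and 159 ± 46.4 in controls (SD, n = 3), a log2 rise of 2.77 (SE 0.23, adjusted p = 0.00245). It fell at 4 d against 8 h (log2 change -2.27, SE 0.23, adjusted p = 0.000995). The differences within runs were 2.82 and 2.55 at 8 h against control and -2.14 and -2.22 at 4 d against 8 h, in runs 1 and 3.

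The log2 change of Egr1 at 4 d against control was 0.50 (SE 0.21, adjusted p = 0.182). It passed there with the run as a block (adjusted p = 0.0245), with 0.68, 0.50 and 0.33 in the 3 runs. The call at 8 h against control was lost without 8 h 1 (adjusted p = 0.0504) or 8 h 2 (0.0772). It was also lost without run 1 (0.503) or run 2 (0.0528). The fall at 4 d against 8 h held when any single array was left out and was lost without run 1 (adjusted p = 0.0813).

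The stretch before the start of Egr1 is shown because it holds CArG boxes, through which serum response factor is known to act on this gene, and those of Jund, Nr4a1 and Junb are shown beside it. Junb, like Egr1, was highest on the 8 h arrays. RefSeq sequences of 5 of the 9 genes were at hand (build GRCr8), each read for the 250 bases before the start used in that table, in the direction of transcription. For 4 of the 5 this is the start of the annotated gene, while for Nr4a1 it lies inside the annotated gene, whose span begins upstream of it. Capitals mark CArG boxes (the site of serum response factor), CRE half-sites (CGTCA or TGACG, the site of CREB and ATF proteins) and Egr sites (GCGTGGGCG or its reverse complement). All were searched on both strands. AP-1 sites (TGACTCA or TGAGTCA) were searched too and 0 were found in the 5. A full CRE site (TGACGTCA) contains 2 overlapping half-sites.
Egr1: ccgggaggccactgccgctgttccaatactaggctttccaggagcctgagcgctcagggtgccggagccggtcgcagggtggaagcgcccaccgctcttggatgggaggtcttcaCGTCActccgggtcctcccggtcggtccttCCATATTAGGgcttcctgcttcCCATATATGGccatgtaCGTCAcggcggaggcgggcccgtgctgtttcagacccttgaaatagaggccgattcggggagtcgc
Jund: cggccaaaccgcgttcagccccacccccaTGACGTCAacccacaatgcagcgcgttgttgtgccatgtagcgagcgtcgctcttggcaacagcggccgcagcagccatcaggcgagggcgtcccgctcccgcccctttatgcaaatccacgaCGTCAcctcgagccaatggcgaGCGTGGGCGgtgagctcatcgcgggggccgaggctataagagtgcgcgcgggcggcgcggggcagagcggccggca
Nr4a1: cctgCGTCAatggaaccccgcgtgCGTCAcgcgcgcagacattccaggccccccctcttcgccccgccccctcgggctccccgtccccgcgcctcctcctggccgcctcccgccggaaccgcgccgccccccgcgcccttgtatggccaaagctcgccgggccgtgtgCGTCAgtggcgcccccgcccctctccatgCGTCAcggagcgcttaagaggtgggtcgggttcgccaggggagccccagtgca
Junb: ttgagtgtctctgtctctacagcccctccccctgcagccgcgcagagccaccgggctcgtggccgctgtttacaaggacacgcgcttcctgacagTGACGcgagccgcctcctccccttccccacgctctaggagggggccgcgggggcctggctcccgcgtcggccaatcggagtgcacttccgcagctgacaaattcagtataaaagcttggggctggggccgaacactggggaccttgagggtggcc
These lie at chr18:26736828-26737077, plus strand (Egr1), chr16:18769772-18770021, minus strand (Jund), chr7:134259888-134260137, plus strand (Nr4a1) and chr19:40080876-40081125, plus strand (Junb). The Egr1 stretch held 2 CArG boxes, CCATATTAGG at 105 to 96 bases before the start and CCATATATGG at 83 to 74, and 2 CRE half-sites. The Jund stretch held 1 full CRE site at 221 to 214 bases before the start, another half-site, and 1 Egr site. Nr4a1 held 4 CRE half-sites, Fosl1 held 2 and Junb 1, and none of these 3 stretches held a CArG box. Among 33469 RefSeq promoters read over the same length, 1.5% held a CArG box, 18.2% a CRE half-site, 1.59% a full CRE site, 0.478% an Egr site and 4.05% an AP-1 site. A match describes the letters in this window and is neither a site of binding nor a cause.

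Nr4a1 encodes Nur77, an orphan nuclear receptor known in Leydig cells as an activator of steroidogenic genes. Its signal was 257, 222 and 248 at 4 d, 568 and 453 at 8 h, and 451, 596 and 315 in controls. The 4 d arrays lay below all 5 others, and the 8 h arrays overlapped the controls. Nr4a1 fell at 4 d against 8 h (log2 change -0.98, SE 0.25, adjusted p = 0.0460), with differences of -1.05 in run 1 and -0.79 in run 3. This call was lost without control 1 (adjusted p = 0.0698), 8 h 1 (0.220), 8 h 2 (0.149), 4 d 1 (0.117), 4 d 2 (0.124) or 4 d 3 (0.0994), and without run 1 (0.503) or run 2 (0.113). It was also lost with no signal minimum (0.0703) and with eBayes without a trend (0.0716).

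The log2 change of Nr4a1 at 4 d against control was -0.79 (SE 0.22, adjusted p = 0.0510), just short of the threshold, and it passed as a fall with the run as a block (adjusted p = 0.0104), with quantile normalisation (0.0128) and with arrays set to equal medians (0.0314). The differences within the 3 runs were -0.74, -1.31 and -0.31. At 8 h against control its log2 change was 0.19 (SE 0.25, adjusted p = 1.00).

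Nr4a3 encodes NOR-1, a relative of Nur77. Its probe sets disagreed. The brightest by mean, 1369217_at, read 109, 75.4 and 42.0 at 4 d, 153 and 12.8 at 8 h, and 174, 92.8 and 101 in controls, and its groups overlapped in all comparisons. The log2 change was -0.72 (SE 0.55) at 8 h against control, -0.53 (SE 0.50) at 4 d against control and 0.19 (SE 0.55) at 4 d against 8 h, and none passed.

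Probe set 1369067_at, which the array table pairs with a RefSeq transcript of Nr4a3, read 84.6, 64.6 and 110.4 at 4 d, 289.7 and 282 at 8 h, and 7.00, 15.8 and 52.6 in controls. These groups did not overlap, with 8 h above 4 d and 4 d above control, and the probe set passed the signal minimum only through Adjudin arrays. Its log2 change was 2.56 at 8 h against control (SE 0.37, adjusted p = 0.0582), 1.12 at 4 d against control (SE 0.33, adjusted p = 0.0666) and -1.44 at 4 d against 8 h (SE 0.37, adjusted p = 0.0521). None of the 3 passed, and with the run as a block all did (adjusted p = 0.0176, 0.0169 and 0.0211). The third probe set, 1393389_at, read 58.8, 48.4 and 57.8 at 4 d, 148 and 66.2 at 8 h, and 39.0, 19.6 and 40.6 in controls. It exceeded 100 on 8 h 1 alone and was not tested, and its groups were ordered as in 1369067_at.

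**Figure D3:**
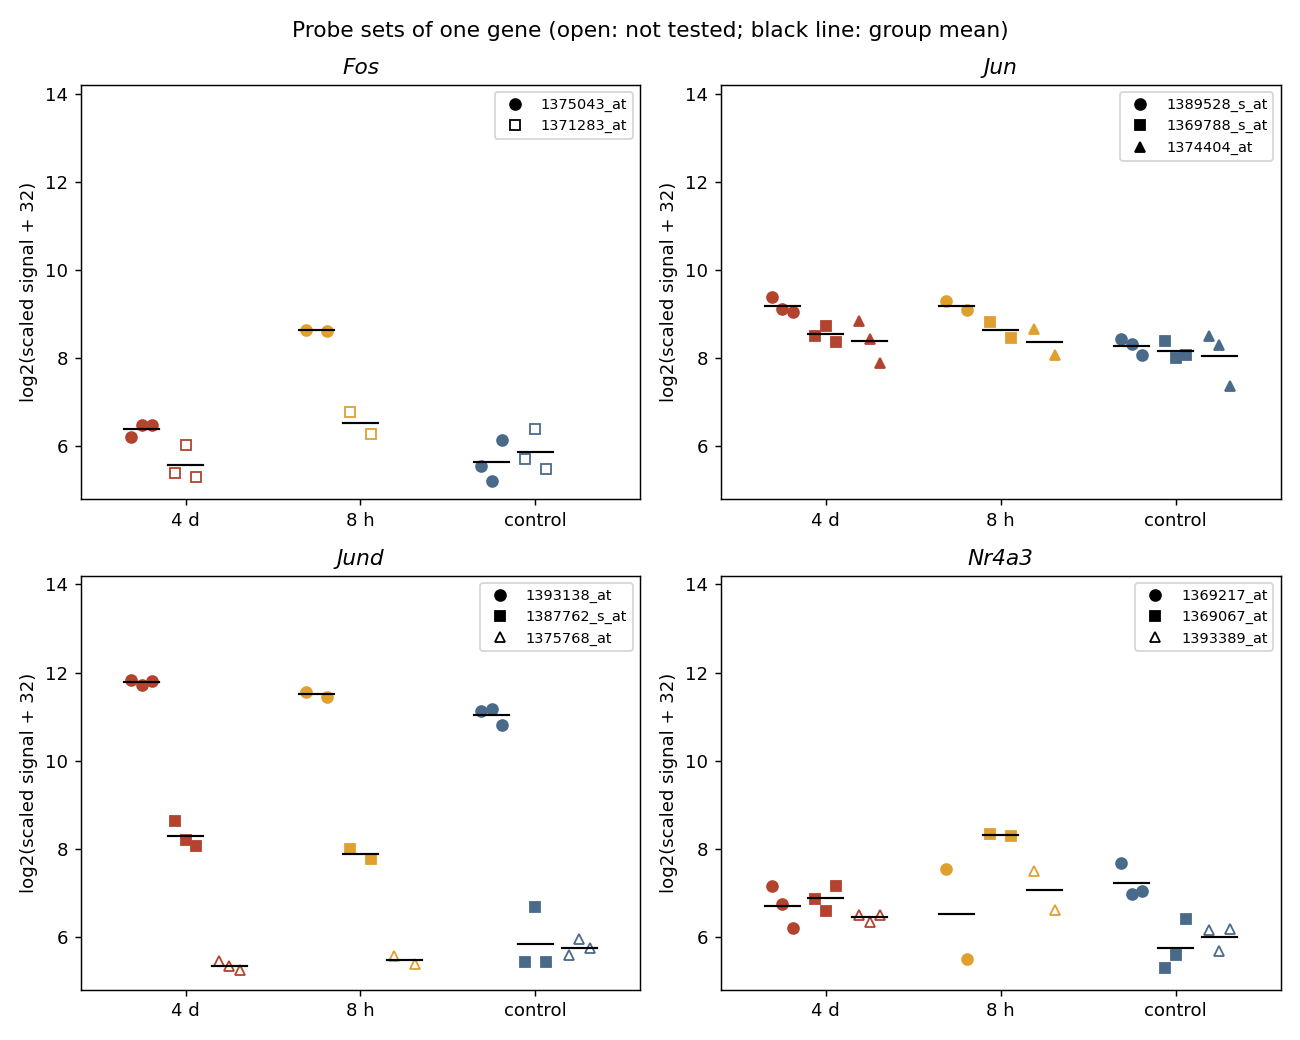
Signal of every probe set of Fos, Jun, Jund and Nr4a3 on each array as log2(signal + 32), at 4 d, 8 h and in controls. Markers tell the probe sets apart, open markers were not tested, and black lines are group means. Heights compare arrays within a probe set, not probe sets with each other. In Nr4a3 1 probe set stands out at 8 h and another does not.

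Counted over the 12 tested probe sets, 8 had both 8 h arrays above all controls, which 7.32% of all tested probe sets had, and 0 had both below, which 7.62% had. Of the 12, 5 lay above control without overlap at 4 d (17.5% of all tested) and 1 below (11.8%), and at 4 d against 8 h 2 lay above (21.2%) and 6 below (13.9%). Since the sets of Fos, 1 of Jund and 1 of Nr4a3 passed the signal minimum only through Adjudin arrays, these counts are a description.

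Markers of testis cell types changed at 4 d, beside the members' changes there, and none passed at 8 h. Over 9 lists of cell type markers, 46 markers were tested. At 8 h against control 0 rose and 0 fell in limma, where 0.0657% of all tested probe sets passed. At an unadjusted p below 0.05, 0 were higher and 2 lower, where 3.91% of all had such a p. The 2 were the Leydig genes Cyp11a1 (mean 969 at 8 h and 1915 in controls, log2 -0.97, adjusted p = 0.356) and Lhcgr (378 and 831, log2 -1.07, adjusted p = 0.385). In each, both 8 h arrays lay below all controls. The summed signals of all 9 lists at 8 h overlapped those of controls. Fos and Egr1 rose in this comparison, and the part of the marker values in their rises was not tested. In each list 0 markers were at 0 on every array.

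In all, 8 markers rose and 4 fell at 4 d against control, where 6.16% of all tested probe sets rose and 3.73% fell. These stood beside the rises of Jun and Jund. The summed signals of 4 lists lay above those of controls and the other 5 overlapped them. The summed signal of the macrophage and leukocyte markers (10 of 10 on the array) was 13408 to 15596 at 4 d and 10351 to 11203 in controls. Of its 9 tested markers 5 rose, while Aif1, a macrophage calcium-binding protein, fell (mean signal 4918 at 4 d and 6836 in controls, log2 change -0.47, adjusted p = 0.0415). Most of the sum in controls was Aif1, so the sum and its largest gene went opposite ways. The largest gains in signal were those of Cd74 (2954 to 3694 at 4 d and 757 to 962 in controls) and Lyz2 (2172 to 3231 and 660 to 829). The summed signal of the Sertoli markers (6 of 10 on the array) was 33071 to 43447 at 4 d and 22882 to 27072 in controls. Most of it came from Clu (mean 22861 at 4 d and 15970 in controls) and Cldn11 (10323 and 6046). Of the 6 tested, 1 rose, Cldn11 (log2 0.76, adjusted p = 0.0153). Inhbb was lower on all 4 d arrays than in any control (log2 -0.49, adjusted p = 0.0725). Endothelial markers (5 of 6) summed to 1045 to 1124 at 4 d and 651 to 809.9 in controls, though 0 of the 4 tested passed. Red cell markers (2 of 3) summed to 6396 to 11216 at 4 d and 3018 to 4968 in controls, and the 2 tested rose. Spermatid markers (8 of 8) summed to 109169 to 157298 at 4 d and 153006 to 234415 in controls, which overlapped. Within each run the 4 d sum was below that of the control (109882 and 168322 in run 1, 109169 and 153006 in run 2, 157298 and 234415 in run 3). Of its markers 3, Prm2, Akap4 and Fscn3, fell. Leydig, peritubular, spermatocyte and neutrophil sums overlapped those of controls too. Within each run the Leydig sum at 4 d was above that of the control (22322 and 11880.5, 14446 and 13703, 23939.5 and 16407). The part of these values in the changes of Jun, Jund and Nr4a1 was not tested.

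Between 4 d and 8 h, 6 markers rose and 3 fell, where 3.58% of all tested probe sets rose and 2.47% fell. These stood beside the falls of Fos, Egr1 and Nr4a1. The sums of the Sertoli, macrophage and leukocyte, endothelial, red cell and neutrophil lists lay above those at 8 h without overlap, and those of the spermatocyte and spermatid lists below. Of the markers tested here, 0 of 6 Sertoli, 0 of 4 endothelial and 0 of 5 spermatocyte markers passed. Of the neutrophil list 2 markers were on the array, both too dim to be tested (sums of 32.4 to 72.0 at 4 d and 9.60 to 24.6 at 8 h). The part of these values in the falls was not tested either.

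Other genes of the same pathways were read from 6 lists, and a gene was tested only where it reached the signal minimum. Of the genes on the array, 19 of 21 other immediate-early genes, 16 of 21 other basic leucine zipper genes and 10 of 19 AP-1 targets were tested. So were 6 of 6 relatives of Egr1 and Nr4a1, 4 of 5 serum response genes and 15 of 16 MAP kinase genes. Among 19 other immediate-early genes, Ier3, an early stress-response gene, and Ppp1r15a, which steers a phosphatase to a translation factor, rose at 8 h (log2 2.95 and 1.60, adjusted p = 0.00245 and 0.0188), 0 fell, and 13 were higher at an unadjusted p below 0.05. The list median was 0.68, against -0.014 over all tested probe sets. The counts of all 6 lists stand beside these shares of all tested probe sets. At 8 h 0.0657% rose and 0% fell (3.91% unadjusted, either direction). At 4 d against control 6.16% rose and 3.73% fell (22.7% unadjusted). At 4 d against 8 h 3.58% rose and 2.47% fell (18.6% unadjusted). Where a listed gene reached the signal minimum only in the group where it is high, count and share are not a like comparison. Of the 19, 8 rose at 4 d against control and 0 fell, with Ier3 (log2 1.93), Ier2 (1.78), the stress genes Gadd45b (1.19) and Gadd45a (1.12), and the transcription factors Klf6 (1.09) and Myc (1.05) changing most, and the list median was 0.57, against 0.036 over all. Myc reached the signal minimum on 4 d arrays alone, and Ier2 and Gadd45b on Adjudin arrays alone, so these genes could pass it only by being higher there. Dusp6, a phosphatase of ERK (log2 -1.12), Ier3 (-1.02) and Ppp1r15a (-0.87) fell at 4 d against 8 h and 0 rose (1 higher at an unadjusted p below 0.05).

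Of 6 relatives and co-regulators of Egr1 and Nr4a1, 0 rose and 0 fell at 8 h in limma, while 3 were higher at an unadjusted p below 0.05. Egr2, a close relative of Egr1, had the smallest p (log2 1.55, SE 0.35, adjusted p = 0.341), with a mean signal of 160 at 8 h and 35.2 in controls. Another relative, Egr3, was lower at 8 h (log2 -0.61, mean 139 and 220 in controls). At 4 d against control Egr3 had a log2 change of -0.63 (adjusted p = 0.211) and was the 1 gene of the list lower at an unadjusted p below 0.05. Egr2 fell at 4 d against 8 h (log2 -1.36, adjusted p = 0.0484), but it reached the signal minimum on the 8 h arrays alone, and Nab1, a co-repressor of Egr proteins, rose at 4 d against control (0.70, adjusted p = 0.0212). The list median was 0.59 at 8 h against control, -0.22 at 4 d against control and -0.52 at 4 d against 8 h.

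Of 16 other basic leucine zipper genes, 0 rose and 0 fell at 8 h, with the smallest p for Cebpd (log2 1.61, adjusted p = 0.253). Of the 16, 4 were higher at an unadjusted p below 0.05, where 3.91% of all had such a p in either direction. Nfil3 (log2 1.11), among these 4, reached the signal minimum on Adjudin arrays alone, so it could pass that only by being higher there. At 4 d against control 4 rose and 0 fell: the C/EBP genes Cebpd (1.06) and Cebpb (0.90), Creb3 (0.87), and Atf6, a sensor of stress in the endoplasmic reticulum (0.61). At 4 d against 8 h 0 passed (1 higher and 1 lower unadjusted), with the smallest p for Atf1 (0.42, adjusted p = 0.138). The list medians were 0.24, 0.23 and -0.065 in the 3 comparisons.

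Few upstream genes passed the test. Of 4 genes of serum response factor and its cofactors, 0 passed at 8 h (0 unadjusted; smallest p Elk4, log2 0.25, adjusted p = 1.00), Elk3 rose at 4 d against control (0.78, adjusted p = 0.0496) and 0 passed at 4 d against 8 h (1 higher and 1 lower unadjusted; smallest p Elk3, 0.63, adjusted p = 0.186). Of 15 MAP kinase cascade genes 0 passed at 8 h (1 higher unadjusted), with the smallest p for Map2k3, a kinase of p38 (0.83, adjusted p = 0.253). The kinase gene Rps6ka3 rose at 4 d against control (0.83, adjusted p = 0.0320) and the p38 gene Mapk13 at 4 d against 8 h (1.58, adjusted p = 0.0242). Mapk13 reached the signal minimum on the 4 d arrays alone (mean 127 at 4 d, 21.1 at 8 h and 55.8 in controls). The MAP kinase list medians were 0.068, 0.23 and 0.16, and those of the serum response list 0.10, 0.23 and 0.076.

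Of 19 listed AP-1 targets on the array, 10 reached the signal minimum and were tested. The counts and medians given here cover only these 10. At 8 h 0 of them passed in limma (4 higher unadjusted). The chemokine gene Ccl2 had the smallest p (log2 2.145, adjusted p = 0.0942). At 4 d against control 5 rose and 0 fell, namely Timp1, an inhibitor of matrix metalloproteases (3.90), Spp1, osteopontin (1.91), Ccl2 (1.71), Ezr, a linker of actin to the membrane (1.46), and Vim, vimentin (1.02). Ccl2 reached the signal minimum on Adjudin arrays alone. Timp1 (3.22), Ezr (1.295) and Vim (0.79) also rose at 4 d against 8 h. The list medians were 0.21, 0.86 and 0.71, against -0.014, 0.036 and 0.059 over all tested probe sets. Over the 6 lists there were 30 calls. Those of Ier3, Gadd45a, Timp1, Ccl2, Spp1, Vim and Ezr at 4 d against control and of Timp1 and Ezr at 4 d against 8 h held without each array in turn. The other 21 were lost without at least 1 array, and each of the 8 arrays ended at least 1 of them.

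**Figure D4:**
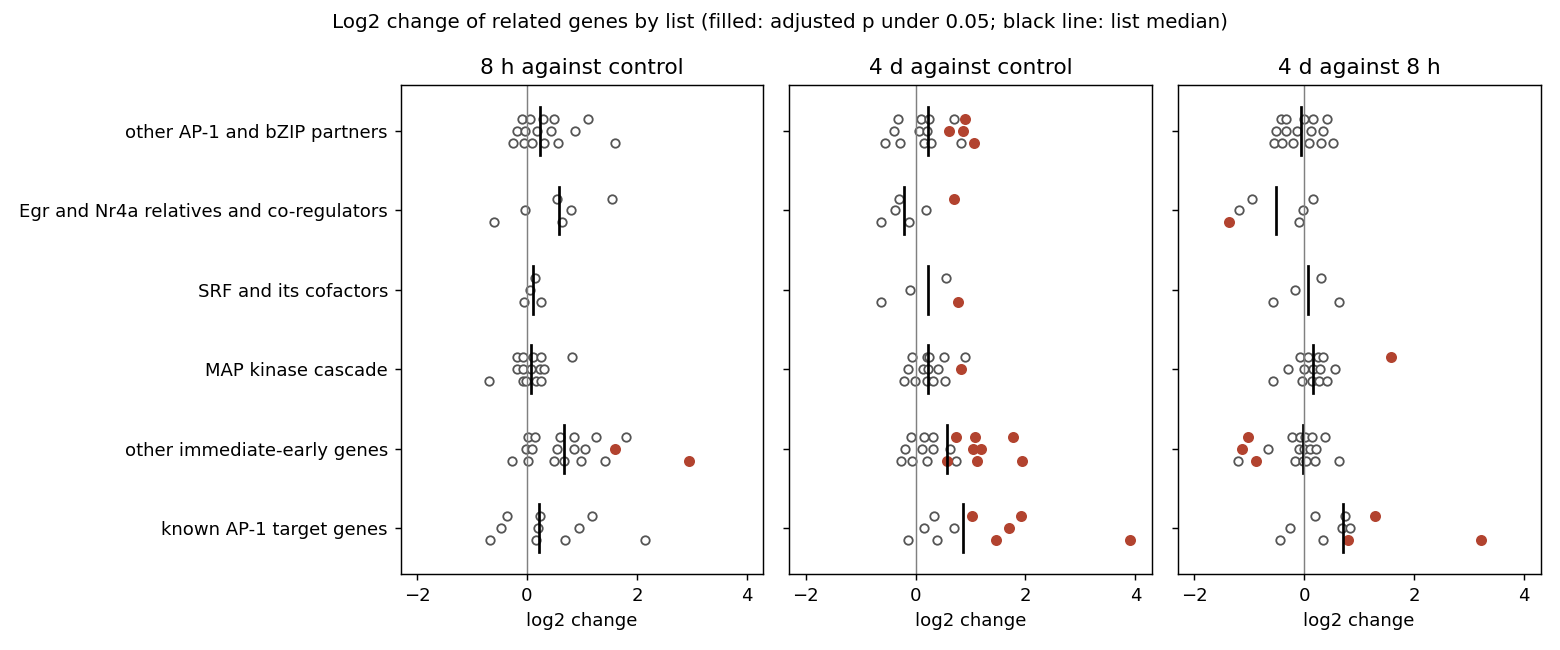
Log2 change of the tested genes of 6 related lists in the 3 comparisons, 1 point per gene. Filled points passed an adjusted p of 0.05, and black lines are list medians. Other immediate-early genes lie mostly right of 0 at 8 h, while the AP-1 targets lie farthest right at 4 d, with Timp1 at 3.90.

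The genes whose log2 signals followed a member most closely over the 8 arrays were picked by Pearson's r, as a description without a test, since the arrays share groups and runs. For Fos these were Map2k3 (r = 0.980), Egr2 (0.965) and Nid2, a basement membrane protein (0.965). For Egr1 they were P4ha2, a subunit of collagen prolyl hydroxylase (0.982), Egr2 (0.968) and Pvr, the poliovirus receptor (0.953). Egr2 thus stood among the 3 nearest of both, but Fos and Egr1 also followed each other (r = 0.985), so these are not separate observations. Egr2 and Fos reached the signal minimum on the 8 h arrays alone. P4ha2 had mean signals of 1011 at 4 d, 1565 at 8 h and 917 in controls.

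For Jun they were Sar1b (0.985), Nfkb2, a subunit of NF-kappaB (0.975), and Bzw1 (0.965), and for Jund Pla2g1b (0.989), B4galt6 (0.987) and Lmo2, a transcriptional cofactor (0.981). Sar1b had mean signals of 1438 at 4 d, 1427 at 8 h and 1241 in controls. Nfkb2 had mean signals of 150.0 at 4 d, 141 at 8 h and 15.7 in controls. Nfkb2 controls lay under the signal minimum, so it could pass that only by being higher on Adjudin arrays. For Nr4a1 they were B3glct (0.982), Ten1 (0.980) and Fgf11 (0.978). Among the members themselves, Fos and Egr1 had an r of 0.985 and Jun and Jund one of 0.925, while that of Fos and Jund was 0.309 and that of Nr4a1 and Jund -0.467.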

How the data were processed

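RNA from 8 testis samples was measured on 1 one-colour array each. The values the authors deposited are signal intensities per probe set on a linear scale, made with MAS 5.0, per the labels and the series' design text, which also names GeneSpring 7.2. The 2% trimmed mean of every array was about 250 (250.083 to 250.116). Detection calls were not used here. Each array was scaled to a 2% trimmed mean of 500 and log2(signal + 32) was taken, which understates the fold changes of dim genes. The test took in every probe set, 57 controls aside, whose scaled value reached 100 on 2 arrays. All 8 arrays were fitted together in limma 3.58.1 (R 4.3.3; lmFit, eBayes with a trend, no block), two-sided, with Benjamini-Hochberg adjustment over 19785 probe sets at 0.05. The number of arrays limits the precision.

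Genes were named from the array's probe table, only from probe sets with 1 symbol. The tested probe set brightest on average stood for its gene. Every member is named. Of each related list the genes past the threshold are named, at most 6 per comparison by size, or else the gene with the smallest p, and the 3 genes most correlated with each called member. Prm1, Aif1, Cd74, Lyz2 and the named Sertoli, Leydig and spermatid markers were picked after their values were seen. So were Nfil3, Egr3 and the levels given for P4ha2, Sar1b and Nfkb2. The members and lists were chosen with earlier results of these data known.

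Runs were read from the project line in the settings of the arrays. After subtraction of group means, the correlation of arrays was 0.353 to 0.507 within a run and -0.476 to 0.246 between runs. The 4 d and control arrays of the same number were therefore paired through the run (r of 0.353 to 0.507), while 8 h 2 shared run 3. Alternatives were other pseudocounts (4, 16 and 64), no signal minimum, other scalings, blocks, other fits and leaving out arrays or runs. Promoter sequences were searched on both strands.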

Additional observations from a re-analysis of the deposited data

Results flagged for a closer look

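Several genes differed between the later and the earlier time after the same dose, by the test of 4 d against 8 h itself. Fos (log2 -2.24), Egr1 (-2.27), Nr4a1 (-0.98) and Egr2 (-1.36) were lower at 4 d. So were Dusp6 (-1.12), Ier3 (-1.02) and Ppp1r15a (-0.87). Timp1 (3.22), Mapk13 (1.58), Ezr (1.295) and Vim (0.79) were higher at 4 d. Fos and Egr2 reached the signal minimum on 8 h arrays alone and Mapk13 on 4 d arrays alone, so the size of these differences rests on a dim group. All groups held 2 or 3 arrays, too few to test an array for standing apart within its group.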

How the results depend on the processing

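Of the single-gene results under all alternatives, 939 kept their direction and their side of the threshold, 226 were no longer past it, 8 newly passed it and 15 changed direction. These include member results that had not passed and so could not be lost. The 939 therefore do not measure how steady the calls were. The 2 calls among the members at 8 h against control became 1 with a pseudocount of 4, with only both groups in the fit and without run 3, and 0 without run 1 or run 2. Leaving out single arrays gave 0 to 2. The 2 calls at 4 d against control became 4 with the run as a replicate block, 0 without run 1 or run 2, and 1 when probe sets were averaged per gene. The 3 calls at 4 d against 8 h became 0 without run 1, and 1 to 3 without single arrays. The title number as a replicate block gave 2, 3 and 3 calls in these comparisons. Over all probe sets, the 13 calls at 8 h became 20 with equal medians, 38 with the title number as a block, 55 with the run as a block, 7 with only both groups fitted, 0, 3 and 6 without runs 1, 2 and 3, and 0 to 15 without single arrays. At 4 d against control the 1956 calls became 1152 with equal medians, 3494 and 4451 with the number and the run as a block, 219 and 501 without runs 1 and 2, and 895 to 1803 without single arrays. At 4 d against 8 h the 1198 calls became 520 with equal medians, 2545 and 3098 with the number and the run as a block, 7 and 353 without runs 1 and 2, and 264 to 1501 without single arrays. Leaving out a run leaves fewer arrays in the fit, and adding a block leaves fewer residual degrees of freedom. Where a group was left with 1 array, it was assumed to vary like the others.

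Changes of direction were found in results that did not pass. Jun at 4 d against 8 h (log2 -0.0015) was 0.086 and 0.0035 with the number and the run as a block, 0.032 without run 2, and -0.10 to 0.10 without single arrays (above 0 without 8 h 1, 4 d 2 or 4 d 3). Nr4a3 was 0.92, 0.29 and -0.62 with the mean of its probe sets at 8 h and 4 d against control and at 4 d against 8 h. Its brightest probe set was 0.21 and -0.58 without run 3 at 8 h against control and at 4 d against 8 h, and, without single arrays, -1.75 to 0.30 and -0.83 to 1.21 in the same comparisons (turned without 8 h 2, and also without 4 d 1 at 4 d against 8 h). Nr4a1 at 8 h against control was -0.030 to 0.40 without single arrays (below 0 without control 3). The cause of these changes was not tested.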
